A study of Rattus norvegicus with 16 samples.

Results

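The hypoxia and glycolysis genes described here are 42 listed rat genes: 17 glycolytic enzymes, 4 glucose and lactate transporters, 4 kinases that steer glycolytic flux, 6 genes of oxygen sensing and 11 other genes that hypoxia-inducible factor (HIF) is known to regulate. The list is defined by name and role, but it was chosen with earlier results of these data known. Its shares set beside those of all genes are therefore descriptions and not independent tests. Of the 42, 39 had an array row that named 1 gene, out of 17245 genes tested, and Hk1, Pgam1 and Hilpda had none. The samples were cells that adhered to commercially pure titanium implants in the tibiae of 8 male Sprague Dawley rats of 326 to 350 g, and the labels used here give no age. Each rat carried a pair of AT-I implants, whose surface has nanoscale features, in one tibia and a pair of AT-II implants, which are microrough without nanoscale features, in the other. The 4 groups, each of 4 arrays, were cells from AT-I implants and cells from AT-II implants retrieved 4 days after placement (AT-I day 4, AT-II day 4), and the same for retrieval after 2 days (AT-I day 2, AT-II day 2). All the rats had surgery, so every group is a healing wound and there is no unwounded bone. The RNA of both implants of a tibia made 1 sample, and each sample was read on 1 Affymetrix Rat Gene 1.1 ST array.

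Glycolysis turns glucose into pyruvate and yields ATP without oxygen. In oxygen, prolyl hydroxylases of the Egln family mark the HIF alpha subunits for capture by the von Hippel-Lindau protein and destruction. When oxygen is low the subunits persist and, as background, raise glucose transporters, glycolytic enzymes, lactate dehydrogenase and lactate exporters. A fresh bone wound has torn vessels and a clot full of neutrophils, cells known to live largely on glycolysis, and osteoblasts are also known for strong aerobic glycolysis.

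Some measured facts of the whole series bear on all results below. The AT-II day 2 replicates 2 and 3 were nearly the same array: in the most variable 10% of the 4036 brighter rows, the SD of their log2 difference was 0.109, against 0.294 in the next closest of 120 array pairs. They were counted as 1 averaged sample, which left 15 samples with n = 3 in AT-II day 2. AT-I day 2 replicate 1 stood apart, in these genes and over the whole array. By the same measure it had the largest SD of all array pairs, 1.92 with AT-II day 4 replicate 1. Its background level (defined below), 7.21, was the highest of all arrays. It was the highest of its group in 25 of the 39 members (64.1%, against 25.1% of all genes). AT-II day 2 replicate 1 was the highest of its group in 23 (59.0%, against 37.0%). The spread of values within an array also differed, with interquartile ranges on the log2 scale of 2.60 to 3.41 on AT-I and 3.10 to 3.42 on AT-II at day 4, and 2.48 to 2.98 on AT-I and 3.05 to 3.41 on AT-II at day 2. The labels call the cells tibial and give no cell type. All 9 neutrophil markers, all 7 macrophage markers and all 6 measured erythroid markers were above background in every sample, so several cell types gave RNA to each sample. Of 5 measured skeletal muscle markers, 0 were above it in every sample. Actn3 and Tnnc2 were above it in no sample, and the others in some samples only. Fewer cells of a type and less RNA per cell cannot be told apart in such bulk samples. Background was taken per array as the 95th percentile of 233 chemosensory receptor genes, at log2 values of 5.55 to 7.21. Of the 39 members, 33 were above it in all 15 samples. Pfkm, Aldoc, Vhl, Car9, Car12 and Ankrd37 were above it in some samples only.

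The core sequence that HIF binds is ACGTG or GCGTG, and both were searched on both strands of the RefSeq promoters of the GRCr8 assembly, each 300 bases long, from 250 bases before the annotated start to 50 after it. Of the 42 listed genes, 38 had such a promoter. ACGTG stood in 22 of those 38 (57.9%), against 19.7% of all 27457 promoters and 22.0% of the 14117 promoters of genes tested. GCGTG stood in 17 of 38 (44.7%), against 31.1% and 40.2%. A CACGTG reads as ACGTG on both strands and was counted once per strand. Of the 6 genes that fell on AT-I (below), Gpi, Pfkl and Pfkfb3 held a match, and Tpi1, Slc16a3 and Egln3 held none in this window. Either sequence stood in 3 of these 6 and in 20 of the 29 measured members with a promoter that did not pass, against 51.6% of the promoters of genes tested. Promoters of those 3 genes follow, with that of Ldha, the lactate dehydrogenase subunit, which held the most matches of any member (6). Matches are in capitals, and a match is not evidence of binding.
Pfkfb3 promoter, chr17:71944683-71944982, plus strand: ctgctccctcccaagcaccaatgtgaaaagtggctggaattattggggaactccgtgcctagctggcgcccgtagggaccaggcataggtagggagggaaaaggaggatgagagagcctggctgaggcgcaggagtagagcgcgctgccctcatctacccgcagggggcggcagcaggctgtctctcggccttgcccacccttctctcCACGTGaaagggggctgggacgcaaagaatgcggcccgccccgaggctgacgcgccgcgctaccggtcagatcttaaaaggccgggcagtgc
Gpi promoter, chr1:95993212-95993511, minus strand: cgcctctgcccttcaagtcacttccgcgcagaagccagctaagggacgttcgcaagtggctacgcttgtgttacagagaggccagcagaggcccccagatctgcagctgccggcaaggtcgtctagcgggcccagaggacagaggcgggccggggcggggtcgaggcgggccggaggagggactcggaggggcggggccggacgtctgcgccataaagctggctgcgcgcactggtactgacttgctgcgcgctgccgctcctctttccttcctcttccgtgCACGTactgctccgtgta
Pfkl promoter, chr20:10663715-10664014, plus strand: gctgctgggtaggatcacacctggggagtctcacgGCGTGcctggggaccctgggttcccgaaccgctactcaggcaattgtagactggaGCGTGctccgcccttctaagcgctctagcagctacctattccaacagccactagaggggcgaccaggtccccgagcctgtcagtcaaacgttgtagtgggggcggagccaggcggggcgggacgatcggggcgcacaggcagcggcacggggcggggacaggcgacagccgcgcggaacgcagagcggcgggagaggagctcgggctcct
Ldha promoter, chr1:106507842-106508141, plus strand: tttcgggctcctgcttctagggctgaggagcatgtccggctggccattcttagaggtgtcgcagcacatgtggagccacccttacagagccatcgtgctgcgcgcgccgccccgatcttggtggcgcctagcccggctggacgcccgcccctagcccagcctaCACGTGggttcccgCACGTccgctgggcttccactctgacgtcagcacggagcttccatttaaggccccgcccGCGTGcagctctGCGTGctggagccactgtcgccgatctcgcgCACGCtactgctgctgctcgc
Positions are of a match's first base, with the annotated start as 1. In Pfkfb3 the capitals mark 1 palindrome at -42, and in Gpi a single ACGTG that lies on the opposite strand, at 33. Pfkl holds GCGTG at -215 and -160. In Ldha, a CACGTG at -87 is followed by 4 further matches.

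The first comparison, day 4 against day 2 on AT-I, asks how the cells on the nanoscale surface changed as the wound aged. Of the 39 measured members, 6 fell and 0 rose, by limma with Benjamini-Hochberg adjustment over all 17245 genes at a threshold of 0.05. Across all genes 11.5% passed in either direction, 8.84% higher and 2.66% lower at day 4. The same 6 fell with all 16 arrays counted separately, where 9.79% of genes were higher and 3.31% lower (13.1% together). The 6 were Egln3, Slc16a3, Tpi1, Pfkfb3, Pfkl and Gpi: an oxygen sensor, a lactate exporter, a kinase that drives phosphofructokinase and 3 enzymes of the steps before glyceraldehyde 3-phosphate dehydrogenase. The log2 difference was below 0 in 31 of 39 members, with a median of -0.30, against 55.2% of all genes and a median of -0.05. Without AT-I day 2 replicate 1 it was below 0 in 28 of 39, with a median of -0.18. By role, with all samples, the difference was below 0 in 13 of 15 glycolytic enzymes (median -0.35, 3 fell), 4 of 4 transporters (median -0.88, 1 fell), 3 of 4 kinases (1 fell), 3 of 6 oxygen sensing genes (1 fell) and 8 of 10 other HIF-regulated genes (median -0.14, 0 fell).

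**Figure D1:**
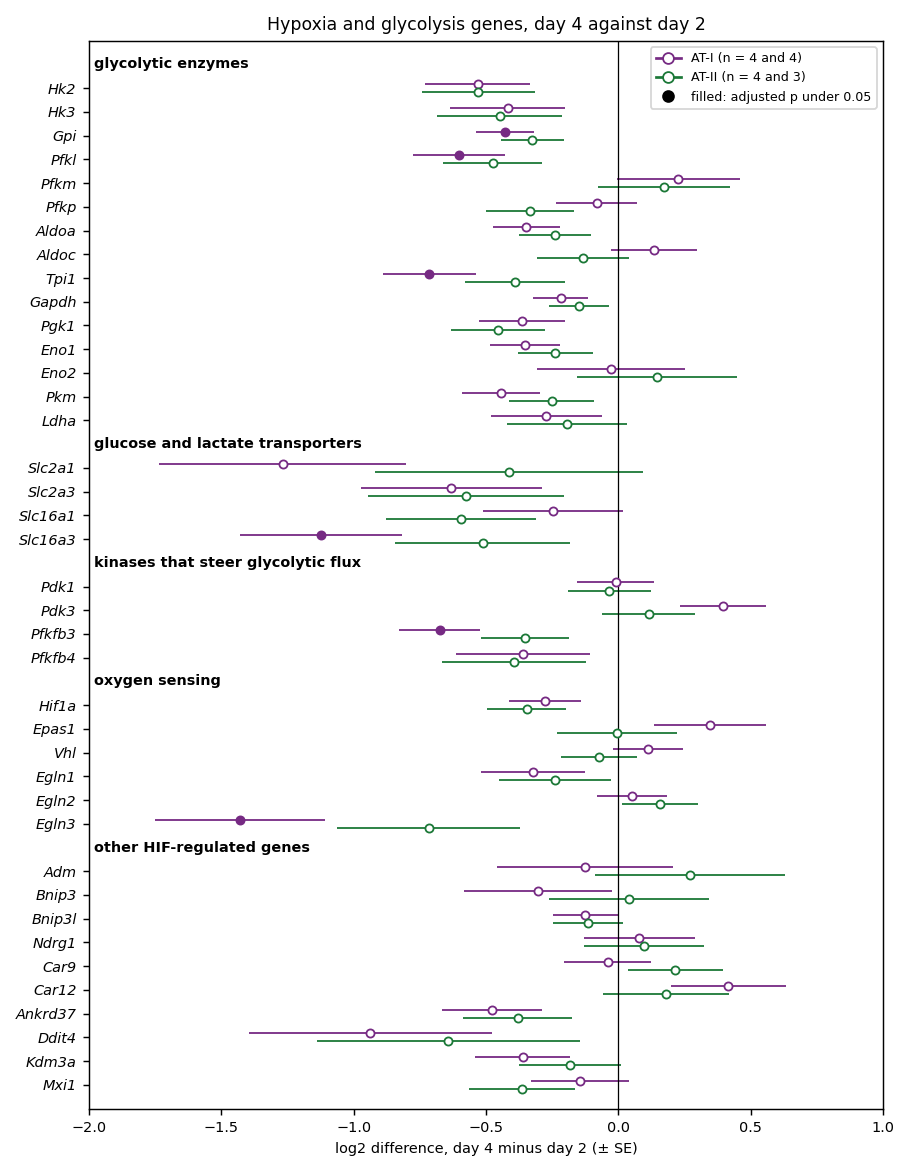
Log2 difference between day 4 and day 2 for the 39 measured members (x axis, ± SE), by role, on AT-I (purple, n = 4 and 4) and AT-II (green, n = 4 and 3); filled points have an adjusted p under 0.05. Aldoc, Car9, Car12 and Ankrd37 were under background in all 4 AT-I day 2 samples, so their points are fitted values and not changes of level. The 6 filled points are all on AT-I and all left of 0, with Egln3 farthest at -1.43.

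Of the oxygen sensing genes, Egln3, the prolyl hydroxylase that HIF itself is known to induce, had the lowest difference of all members. Its log2 values were 7.77, 8.58, 8.99 and 7.73 in AT-I day 4, against 10.67, 9.42, 9.31 and 9.40 in AT-I day 2. All 4 day 4 samples lay below all 4 day 2 samples, and day 2 replicate 1 was far above the rest of its group. The log2 difference was -1.43 ± 0.32 (SE, n = 4 each, limma adjusted p = 0.00877), or 0.371 times the day 2 level, which ranked 26 from the most negative of 17245 genes. Leaving out AT-I day 2 replicate 1 gave -1.11 ± 0.28 (adjusted p = 0.024). Hif1a, the oxygen-regulated alpha subunit, had 10.19, 10.36, 10.17 and 10.36 in AT-I day 4, against 11.01, 10.29, 10.36 and 10.53 in AT-I day 2. Its groups overlapped and its difference of -0.28 ± 0.14 did not pass (adjusted p = 0.201). Epas1, the HIF-2 alpha subunit, had a difference of 0.35 ± 0.21 and Egln1, the main oxygen sensor in most cells, -0.32 ± 0.20 (adjusted p = 0.289 each). For Vhl, the capture protein, it was 0.11 (above background in 3 of 4 AT-I day 2 samples), and for Egln2 it was 0.05. The second row of Egln1 was dimmer, with means of 6.98 in AT-I day 4 and 7.32 in AT-I day 2.

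Slc16a3 encodes MCT4, which carries lactate out of glycolytic cells. Its log2 values were 8.83, 9.47, 9.48 and 8.56 in AT-I day 4, against 11.25, 9.60, 10.10 and 9.88 in AT-I day 2. The groups did not overlap, though the highest day 4 value came close to the lowest day 2 value. The log2 difference was -1.12 ± 0.31 (n = 4 each, adjusted p = 0.0269), 0.459 times the day 2 level, at rank 58 from the most negative. Slc2a1, or GLUT1, the basal glucose importer and a classic HIF target, had 9.10, 9.96, 10.37 and 8.71 in AT-I day 4, against 12.25, 10.05, 10.33 and 10.57 in AT-I day 2. Its difference of -1.27 ± 0.47 did not pass (adjusted p = 0.0925): day 4 replicate 3 lay inside the day 2 range, and the SD was 0.764 in AT-I day 4 and 0.991 in AT-I day 2. It passed with array weights (adjusted p = 0.0382) and when AT-I day 4 replicate 3 was left out (adjusted p = 0.042). It was -0.79 with AT-I day 2 replicate 1 left out (adjusted p = 0.259) and -0.75 with the interquartile range covariate described below (adjusted p = 0.391). Slc2a3, the neuronal and leukocyte glucose importer GLUT3, had a difference of -0.63 ± 0.34 (adjusted p = 0.239). Slc16a1, or MCT1, which carries lactate either way, had -0.25 ± 0.26 (adjusted p = 0.553).

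Pfkfb3 makes fructose 2,6-bisphosphate, the strongest known activator of phosphofructokinase. Its log2 values were 7.85, 8.08, 8.28 and 8.01 in AT-I day 4, against 9.12, 8.39, 8.62 and 8.78 in AT-I day 2. The groups did not overlap. The log2 difference was -0.67 ± 0.15 (n = 4 each, adjusted p = 0.00917), 0.626 times the day 2 level. Pdk3, a kinase that shuts off pyruvate dehydrogenase, went the other way in sign: 9.87, 9.80, 9.52 and 9.84 in AT-I day 4, against 9.53, 9.79, 8.87 and 9.25 in AT-I day 2. Those groups overlapped, and the difference of 0.39 ± 0.16 did not pass (adjusted p = 0.129). It passed with array weights (adjusted p = 0.0434) and with AT-I day 2 replicate 2 left out (adjusted p = 0.0303). Pfkfb4 had -0.36 ± 0.25 and Pdk1, another pyruvate dehydrogenase kinase, -0.01 ± 0.15.

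The 3 glycolytic enzymes that fell were Tpi1, Pfkl and Gpi. Tpi1, triose phosphate isomerase, had 10.47, 10.65, 11.03 and 10.56 in AT-I day 4, against 11.86, 11.08, 11.48 and 11.15 in AT-I day 2. Its difference was -0.71 ± 0.17 (n = 4 each, adjusted p = 0.0152), 0.610 times the day 2 level. Its groups were separated by little, day 4 replicate 3 lying just under day 2 replicate 2. Pfkl, the liver-type phosphofructokinase that commits sugar to glycolysis, had 7.96, 8.34, 8.39 and 8.05 in AT-I day 4, against 9.34, 8.54, 8.78 and 8.49 in AT-I day 2. The difference was -0.60 ± 0.17 (adjusted p = 0.0357), 0.659 times the day 2 level. Day 2 replicate 1 was again the highest sample, and the groups did not overlap. Gpi, which turns glucose 6-phosphate into fructose 6-phosphate, had 11.71, 11.82, 11.85 and 11.58 in AT-I day 4, against 12.36, 12.18, 12.09 and 12.05 in AT-I day 2. Its difference was -0.43 ± 0.11 (adjusted p = 0.0196), 0.743 times the day 2 level, with no overlap.

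**Figure D2:**
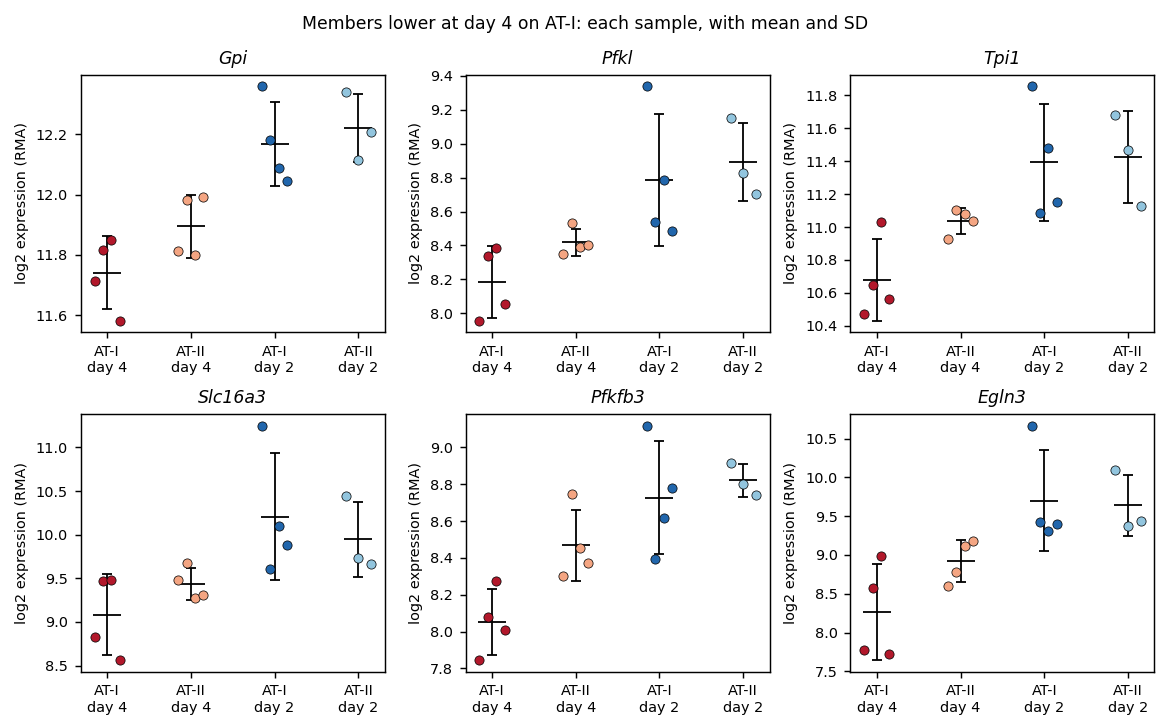
Log2 expression (y axis) of the 6 members that fell on AT-I, in each of the 15 samples (points) with the mean and SD of each group. In each panel all 4 AT-I day 4 points lie below all 4 AT-I day 2 points, and the highest AT-I day 2 point is replicate 1.

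The enzymes of the later steps, from Gapdh to Ldha, did not pass. Pkm, pyruvate kinase, had a difference of -0.44 ± 0.15 (adjusted p = 0.065), Eno1, the common enolase, -0.35 ± 0.13 (adjusted p = 0.0975), and Pgk1, phosphoglycerate kinase, -0.36 ± 0.16 (adjusted p = 0.159). Gapdh, glyceraldehyde 3-phosphate dehydrogenase, had -0.22 ± 0.10 (adjusted p = 0.186), and Ldha -0.27 ± 0.21 (adjusted p = 0.405). Upstream of these, Aldoa, the common aldolase, had -0.35 ± 0.13 (adjusted p = 0.0862) and Hk2, the inducible hexokinase, -0.53 ± 0.20 (adjusted p = 0.0949). The Hk2 samples did not overlap, with 7.71, 8.11, 7.70 and 7.80 in AT-I day 4, against 8.78, 8.12, 8.43 and 8.13 in AT-I day 2. Aldoa, Pkm, Eno1 and Hk2 each passed when every array was centred on its median, a scaling that takes the median of all genes to -0.21. Without AT-I day 4 replicate 3 Pgk1 (adjusted p = 0.0191), Eno1 (0.0276) and Aldoa (0.0287) passed. With the interquartile range covariate these genes did not pass (0.616, 0.322 and 0.326, in the same order). Pkm also passed with the filter on low values (adjusted p = 0.045), with trend and robust eBayes (0.0441), with the replicate block (0.0467), without AT-I day 2 replicate 4 (0.0469) and without AT-I day 4 replicate 3 (0.0204), and had -0.30 with the interquartile range covariate (0.266). Hk3, a hexokinase of blood cells, had -0.42 ± 0.22 (adjusted p = 0.22), and Pfkp, the platelet phosphofructokinase, -0.08 ± 0.15. Of the tissue-restricted forms, Pfkm, the muscle phosphofructokinase, had 0.23, but was above background in only 2 of 4 AT-I day 2 and 3 of 4 AT-I day 4 samples. Eno2, the neuronal enolase, had -0.03, while Aldoc, the brain aldolase, was under background in all 4 AT-I day 2 samples. Gapdh was read by 6 rows, Eno1 and Pkm by 3 each and Ldha by 2, and these genes are known to have many near copies that could share signal. Which row lies at the gene's own locus was not checked, so the brightest row used may read a copy. The second Ldha row had means of 11.47 in AT-I day 4 and 12.06 in AT-I day 2, a wider gap than the 11.93 and 12.20 of the brighter row.

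None of the 10 other HIF-regulated genes passed. Ankrd37, an ankyrin repeat gene that HIF is known to induce, had 5.46, 5.78, 6.54 and 5.83 in AT-I day 4, against 6.62, 6.21, 6.41 and 6.29 in AT-I day 2. It was under the background level in all 4 AT-I day 2 samples and in 3 of the 4 AT-I day 4 samples, so no fold is given, and it did not pass (adjusted p = 0.116). Ddit4, an inhibitor of mTOR signalling induced by hypoxia and by glucocorticoids, had 8.18, 8.41, 8.25 and 7.94 in AT-I day 4, against 10.86, 8.38, 8.82 and 8.46 in AT-I day 2. A single sample, day 2 replicate 1, lay far above all others, and the difference of -0.94 ± 0.46 did not pass (adjusted p = 0.196). Bnip3 and Bnip3l, which promote removal of mitochondria, had -0.30 and -0.13. Adm, the vasodilator adrenomedullin, had -0.13, Ndrg1 0.08, and Kdm3a, a histone demethylase, -0.36. Mxi1, a Myc antagonist, had -0.14. Car9 and Car12, the membrane carbonic anhydrases, were under background in all 4 AT-I day 2 samples and above it in 1 AT-I day 4 sample each. Car12 passed as higher without AT-I day 4 replicate 4 (adjusted p = 0.0489), but at these levels no rise is shown.

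The 6 calls on AT-I were not equally firm. With each array's interquartile range as a covariate none of the 6 passed, with differences of -1.15 for Egln3, -0.82 for Slc16a3, -0.50 for Pfkfb3, -0.45 for Tpi1, -0.44 for Pfkl and -0.40 for Gpi and adjusted p from 0.0641 for Gpi to 0.172 for Pfkl. Without AT-I day 2 replicate 1 Gpi, Pfkl and Slc16a3 did not pass (adjusted p = 0.0623, 0.0944 and 0.0626). Without AT-I day 4 replicate 1, or without replicate 4, Gpi, Pfkl, Tpi1 and Slc16a3 did not pass, and with AT-I day 2 replicate 3 left out Pfkl did not (adjusted p = 0.0651). Egln3 and Pfkfb3 passed with any 1 sample left out. Over the same days 8 of 8 osteoblast markers rose on AT-I (Phex was under background in all 4 AT-I day 2 samples), with list means of 9.95 to 10.69 in AT-I day 4 against 6.50 to 7.78 in AT-I day 2. The osteoclast list mean was 8.61 to 9.48 in AT-I day 4 against 6.89 to 8.14 in AT-I day 2 (2 of 5 rose), and the mesenchymal stromal list mean 10.28 to 10.47 against 8.80 to 9.59 (3 of 6 rose). The neutrophil list mean was 11.22 to 11.91 in AT-I day 4 against 11.41 to 12.20 in AT-I day 2. Of its 9 genes, 1 fell, Csf3r. The macrophage list mean was 9.67 to 10.12 in AT-I day 4 against 9.56 to 10.12 in AT-I day 2. Of its 7 genes, only Cd14 fell. The neutrophil and macrophage list means thus overlapped between the days. Beside these counts, 8.84% of all genes rose on AT-I and 2.66% fell. The part of these cell types in the fall of the 6 genes was not tested.

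The same comparison on AT-II asks how cells on the surface without nanoscale features changed. None of the 39 members passed, where 3.33% of all genes did, 3.13% higher and 0.203% lower. With 16 arrays still none passed, against 4.92% of genes, 4.29% higher and 0.632% lower. At an unadjusted p under 0.05 by limma, with 15 samples, there were 6 of 39 members, against 2237 of 17245 genes. The difference was below 0 in 30 of 39, with a median of -0.24, against 59.7% of all genes and a median of -0.05. It was below 0 on both surfaces in 27 members, above 0 on both in 5 and of opposite sign in 7. Of all genes, 43% were below 0 on both.

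The 6 genes that fell on AT-I had differences below 0 on AT-II too, smaller in each case. Egln3 had 8.61, 8.78, 9.12 and 9.18 in AT-II day 4, against 10.10, 9.44 (the averaged pair) and 9.38 in AT-II day 2. The groups did not overlap, and the difference was -0.72 ± 0.35 (n = 4 and 3, adjusted p = 0.407). Pfkfb3 had 8.30, 8.74, 8.45 and 8.37 in AT-II day 4, against 8.92, 8.74 and 8.80 in AT-II day 2, in the same order. Its difference was -0.35 ± 0.16 (adjusted p = 0.381), and the day 4 maximum met the day 2 minimum. Slc16a3 had 9.48, 9.67, 9.28 and 9.30 in AT-II day 4, against 10.44, 9.67 and 9.73 in AT-II day 2, a difference of -0.51 ± 0.33 (adjusted p = 0.587). Tpi1 had -0.39 ± 0.19, with 10.93, 11.10, 11.08 and 11.04 in AT-II day 4 against 11.68, 11.13 and 11.47 in AT-II day 2. Its day 4 samples all lay below its day 2 samples. For Pfkl the values were 8.35, 8.53, 8.39 and 8.40 in AT-II day 4, against 9.15, 8.70 and 8.83 in AT-II day 2, a difference of -0.48 ± 0.19 (adjusted p = 0.259). For Gpi they were 11.81, 11.98, 11.80 and 11.99 in AT-II day 4, against 12.34, 12.21 and 12.11 in AT-II day 2, a difference of -0.33 ± 0.12 (adjusted p = 0.207). Neither gene's groups overlapped.

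In the other members, Slc2a1 had 9.68, 10.58, 10.36 and 10.53 in AT-II day 4, against 11.65, 10.27 and 10.18 in AT-II day 2. Here only day 2 replicate 1 was above the day 4 samples, and the difference was -0.41 ± 0.51 (adjusted p = 0.822). Hif1a had 10.28, 10.35, 10.22 and 10.41 in AT-II day 4, against 10.70, 10.60 and 10.67 in AT-II day 2, without overlap but with a difference of -0.35 ± 0.15 that did not pass (adjusted p = 0.317). Pgk1 had -0.45 ± 0.18 (adjusted p = 0.244) and Hk2 -0.53 ± 0.21 (adjusted p = 0.274). Both passed with array weights (adjusted p = 0.0432 and 0.0458), and Hk2 also when AT-II day 4 replicate 2 was left out (adjusted p = 0.035). Day 4 and day 2 did not overlap in 7 lower members on each surface, against 4.01% of all genes on AT-I and 7.63% on AT-II. Gpi, Pfkl, Tpi1 and Egln3 were among them on both. On AT-II Egln2 alone was higher without overlap, against 8.74% of all genes. Adm had 0.27 on AT-II and -0.13 on AT-I.

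Whether the surfaces differed in their time course was tested directly, as the AT-I change minus the AT-II change. No member passed and no gene did (0%), with 0 of 39 members and 707 of 17245 genes at an unadjusted p under 0.05 by limma. Slc2a1 had the most negative member difference, -0.86 ± 0.69, followed by Egln3 at -0.71 ± 0.47 and Slc16a3 at -0.61 ± 0.45 (adjusted p = 0.924 each). So the fall of the 6 genes on AT-I was not shown to differ from the change on AT-II.

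**Figure D3:**
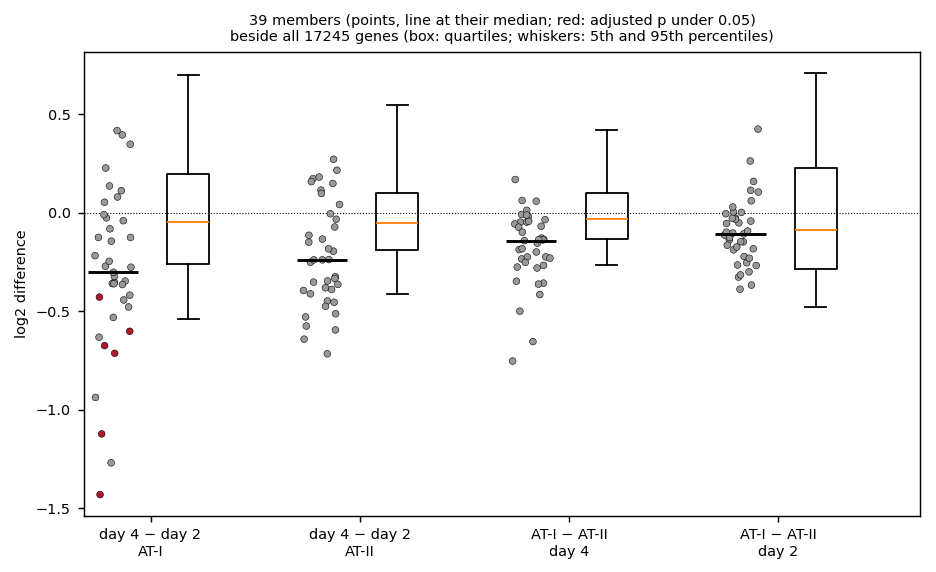
Log2 differences (y axis) of the 39 members (points, bar at their median) beside all 17245 genes (box at the quartiles, whiskers at the 5th and 95th percentiles) in 4 comparisons; red points have an adjusted p under 0.05. The member medians are -0.30 and -0.24 over time on AT-I and AT-II, and -0.14 and -0.11 between surfaces at day 4 and day 2.

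AT-I against AT-II at day 4 asks whether nanoscale features altered these genes in the older wound. None of the 39 members passed and no gene did (0%), with 1 member and 687 genes at an unadjusted p under 0.05. The difference was below 0 in 35 of 39, with a median of -0.14, against 58.2% of all genes and a median of -0.03. All 15 glycolytic enzymes were below 0, from -0.36 for Eno2 and Tpi1 to -0.05. But with each array centred on its median, 25 of 39 members and 11 of 15 enzymes were below 0. The median of all genes was then 0.05. Pfkfb3 had 7.85, 8.08, 8.28 and 8.01 in AT-I day 4, against 8.30, 8.74, 8.45 and 8.37 in AT-II day 4, a difference of -0.42 ± 0.15 (adjusted p = 0.913). It lay lower on AT-I without overlap, as did Egln2 and Kdm3a, against 1.41% of all genes, and no member lay higher without overlap, against 0.789%. Slc2a1 had -0.75 ± 0.47 and Egln3 -0.65 ± 0.32 (adjusted p = 0.913 each). In both, AT-I day 4 replicates 1 and 4 were the lowest samples of all 8, and AT-I day 4 replicate 3 lay within the AT-II range. Adm had -0.50 ± 0.33.

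AT-I against AT-II at day 2 asks the same of the early wound. No member passed and no gene did (0%), with 1 member and 4701 genes at an unadjusted p under 0.05. With all 16 arrays counted separately 0 members passed still, against 12.7% of genes (higher on AT-I in 6.04%, lower in 6.68%). The difference was below 0 in 30 of 39, with a median of -0.11, against 57.8% of all genes and a median of -0.09. Car9 had the smallest p: 6.18, 5.84, 6.22 and 5.91 in AT-I day 2, against 5.69, 5.34 and 5.81 in AT-II day 2. All AT-I samples were higher (such a pattern held in 8.83% of all genes), but every one of these 7 values was under the background level, so no fold is given, and it did not pass (adjusted p = 0.159). Epas1 had -0.39 ± 0.23 and Slc16a1 -0.37 ± 0.28. The 6 genes that fell over time on AT-I had differences of 0.26 for Slc16a3, 0.06 for Egln3, -0.03 for Tpi1, -0.05 for Gpi, -0.09 for Pfkfb3 and -0.11 for Pfkl.

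**Figure D4:**
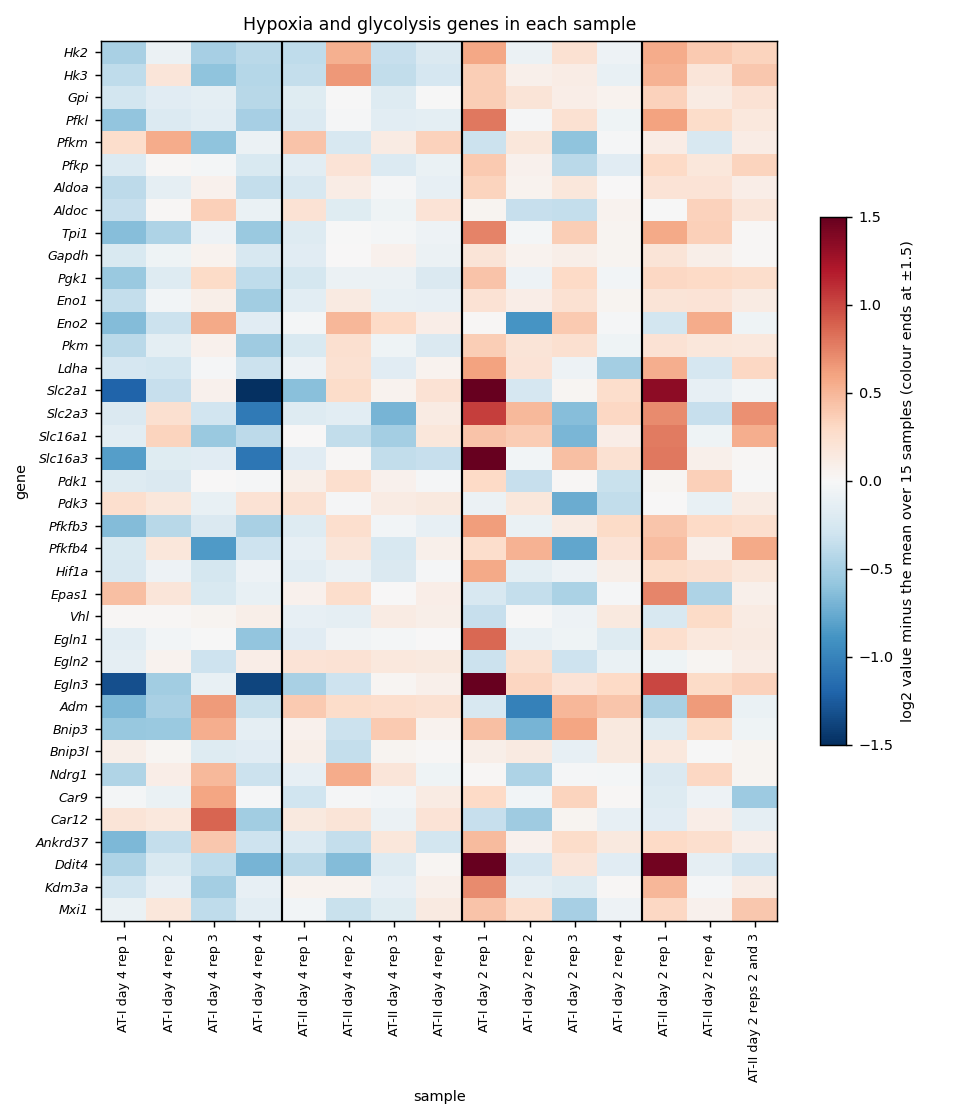
Log2 value of each measured member (rows) in each of the 15 samples (columns, grouped by surface and day), minus the gene's mean over samples, with the colour ending at ±1.5. Slc2a1, Slc16a3, Egln3 and Ddit4 have their deepest red in AT-I day 2 replicate 1, and Slc2a1 and Egln3 their deepest blue in AT-I day 4 replicates 1 and 4.

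Within groups, the highest sample was often the same one for many members. Replicate 1 minus the mean of the other samples at day 2 was 2.31 on AT-I and 1.66 on AT-II for Ddit4, and 1.94 and 1.42 for Slc2a1. For Slc16a3 it was 1.39 and 0.74, and for Egln3 1.29 and 0.69. It was above 1 in 4 members on AT-I (10.3%, against 1.86% of all genes) and in 2 on AT-II (5.13%, against 1.06%). The labels do not say whether the samples numbered 1 came from the same rat. At day 4 the highest sample was AT-I replicate 3 in 23 members (59.0%, against 29.1% of all genes), and AT-II replicate 2 in 19 (48.7%, against 29.0%). Bnip3 had 10.40, 10.41, 11.51 and 10.84 in AT-I day 4, and Eno2 7.89, 8.21, 9.10 and 8.37, both highest in replicate 3.

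Other genes of the same and neighbouring pathways were read from further lists. Of 25 measured genes of the HIF system and other HIF targets, 5 passed as higher on AT-I and 0 as lower, against 8.84% and 2.66% of all genes. They were Plod2 (1.70 ± 0.27, adjusted p = 0.0007), Kdm4c (0.44, adjusted p = 0.0162), P4ha2, Rora and Pgf. The last 3 were not above background in any AT-I day 2 sample, so only a lower bound can be had, taking background as the day 2 level where a value was under it. P4ha2 was at least 1.61-fold higher (measured means of 7.50 in AT-I day 4 and 6.40 in AT-I day 2, adjusted p = 0.0236) and Pgf at least 1.18-fold (7.05 and 6.25, adjusted p = 0.00315). Rora had means of 6.74 in AT-I day 4, above background in 3 of 4 samples, and 5.86 in AT-I day 2, and has no fold (adjusted p = 0.0036). Plod2 and P4ha2 are hydroxylases that modify collagen, Rora is a nuclear receptor and Pgf a growth factor for vessels. On AT-II, Plod2 (1.55), Rora (0.74, above background in 2 of 3 day 2 samples) and Pgf (0.67) rose and none fell, against 3.13% and 0.203% of all genes. Plod2 had 11.31, 10.91, 11.08 and 11.18 in AT-I day 4, against 8.87, 9.21, 10.20 and 9.38 in AT-I day 2, without overlap. Across this list 13 of 25 were below 0 on AT-I, with a median of -0.03. Osteoblast markers rose over the same days, 8 of 8 on AT-I and 7 of 8 on AT-II, and their part in the rise of the collagen genes was not tested.

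Of 19 measured other genes of glycolysis and gluconeogenesis, 1 rose on AT-I, Slc16a7, the MCT2 transporter (0.92, adjusted p = 0.0324; above background in 3 of 4 AT-I day 2 samples), against 8.84% of all genes. Slc2a2, the GLUT2 transporter, passed as lower (adjusted p = 0.0487) but was under background in all samples, so no fall of its level is shown. None passed on AT-II. Of 17 genes of the tricarboxylic acid cycle and pyruvate dehydrogenase, 2 rose on AT-I and 0 fell, a share near the 8.84% and 2.66% of all genes. They were Sucla2, a subunit of succinyl-CoA ligase (0.58, adjusted p = 0.00596), and Dld, the dehydrogenase subunit shared by pyruvate dehydrogenase and the cycle (0.54, adjusted p = 0.0121). None passed on AT-II. Of 6 genes of the pentose phosphate pathway, which branches from glycolysis to make NADPH, Taldo1, transaldolase, fell on AT-I (-0.44, adjusted p = 0.0364), where 2.66% of all genes did, and none passed on AT-II. All 6 were at or below 0 on both surfaces.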

How the data were processed

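RNA from cells adhering to retrieved implants was read on 16 Affymetrix Rat Gene 1.1 ST arrays. The submitters' processing notes name RMA and Affymetrix Expression Console, with which the authors made the deposited log2 values. That the log2 base holds was inferred from RMA. Tool versions were not given in the sources used here. Values ran from 1.82 to 14.01. Precision is limited by how few arrays each group has.

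Of 29214 array rows, 18644 named 1 gene in GEO's platform annotation, 962 several and 9608 none, which left 17245 genes, each by its brightest row. 18460 of the gene IDs were in the RefSeq GRCr8 table. limma 3.58.1 (R 4.3.3; lmFit, eBayes, two-sided) fitted all 4 groups in 1 model with 11 residual degrees of freedom, and p-values were adjusted by Benjamini-Hochberg over all genes. No filter on low values was set; the alternative filter, a mean log2 of 6.18, kept 36 of 39 measured members and 9977 genes. AT-II day 2 replicates 2 and 3 were averaged. By the labels 4 rats were used per day, but samples are not tied to rats. The fit was tested on simulated data with independent noise, of the same SD for a gene on every array. That test does not cover the unequal interquartile ranges or the outlying samples of the real arrays. Promoters were from RefSeq GRCr8.

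The members and lists were chosen with earlier results of these data known. Values in every sample were given for members that passed and for the 2 smallest p in each role group. Ddit4, Hk2, Bnip3 and Eno2 were shown by sample after their values were seen. The 26 other settings covered leaving out each of the 15 samples and 11 others.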

Additional observations from a re-analysis of the deposited data

Results flagged for a closer look

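In 7 of 117 groups of 4 samples, 1 sample's gap to its nearest neighbour was a large part of the group's range. Chance alone marks about 1 in 20 groups. Hk3, a hexokinase of blood cells, was at 8.40 in AT-II day 4 replicate 2, with the others at 7.37 to 7.49, and Bnip3l was at 11.31 in the same sample, with the others at 11.70 to 11.76. In AT-I day 2 replicate 1, Egln3 was at 10.67 (others 9.31 to 9.42) and Egln1 at 9.30 (others 8.25 to 8.38). Ndrg1 was at 10.25 in AT-I day 2 replicate 2 (others 10.68 to 10.73). Car9 was at 6.48 in AT-I day 4 replicate 3 (others 5.78 to 5.87). Kdm3a was at 8.79 in AT-II day 4 replicate 3 (others 8.95 to 8.98).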

How the results depend on the processing

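No called difference of a member changed sign under any of the 26 other settings. On AT-I over time, 1983 genes passed, and 1060 with only the 2 groups compared, 1314 with the interquartile range covariate, and 1158 to 2954 with 1 sample left out. Centring turned the split of higher and lower genes to 991 and 1504, against 1525 and 458 as reported, and took the median of all genes to -0.21 on AT-I and -0.16 on AT-II. Of the members, 6 passed, and 10 with centring, 2 with only the 2 groups compared, 10 with array weights (1 of them higher), 0 with the interquartile range covariate, and 2 to 12 with 1 sample left out. On AT-II over time, 575 genes passed, and 1228 with array weights, 334 without both day 2 samples numbered 1, and 223 to 694 with 1 sample left out. Of the members, 0 passed, and 2 with array weights and 0 to 1 with 1 sample left out. Between surfaces at day 2, 0 genes passed (4701 at an unadjusted p under 0.05 by limma), and 2193 with all 16 arrays, 1 with quantile normalization repeated, 3713 with array weights and 0 to 711 with 1 sample left out. With the replicate block and all 16 arrays, 3823 genes and 1 member passed, Car9 (adjusted p = 0.0465, under background in every day 2 sample). AT-I and AT-II samples of a day come from the same rats, but the labels do not match numbers to rats: same-number correlations of deviations were 0.642, 0.505, -0.258 and 0.153 at day 2 and 0.131, -0.339, 0.468 and 0.201 at day 4. Those of different numbers ran from -0.388 to 0.556 at day 2 and from -0.517 to 0.55 at day 4. No gene or member passed between surfaces at day 4, or for the difference between time courses, under any setting run. The difference between time courses cannot be had from only the 2 groups compared. The causes were not tested.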
